A study of Mus musculus with 2 samples.

Results

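Hist1h1t, H1fnt and Hils1 are the 3 linker histone genes of mouse male germ cells that were looked up by symbol among the 32285 genes of the count tables, and all 3 were found in both libraries. The libraries are single-cell RNA counts of dissociated whole testis, 1 from Prm2 -/- (knockout) and 1 from Prm2 +/- (heterozygous) mice, so that both genotypes carry a mutant Prm2 allele and no wild-type testis stands beside them. Prm2 encodes protamine 2, which takes the place of histones on sperm DNA. The labels used here give no age, strain or number of animals, and a lone library per genotype leaves nothing to test against. All intervals are 95% intervals that cover counting error only, and the differences have no replicate check.

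Linker histones bind the DNA that enters and leaves the nucleosome and help to fold chromatin, and male germ cells make several that other cells do not. Hist1h1t encodes H1t, the linker histone that meiotic spermatocytes add during pachytene, when homologous chromosomes are fully paired. H1fnt encodes H1T2, which sits at the front pole of the spermatid nucleus and is needed for its elongation and condensation. Hils1 encodes a linker histone-like protein of the nuclei of elongating spermatids. The spermatid proteins act around the same time as the transition proteins (Tnp1, Tnp2) and protamines (Prm1, Prm2) that follow histones on the DNA.

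Each gene is a lone exon on mm10. Hist1h1t (ENSMUSG00000036211) lies on chromosome 13 at 23695814 to 23696725, plus strand, in a cluster of histone genes. H1fnt (ENSMUSG00000048077) lies on chromosome 15 at 98255986 to 98257293, minus strand. Hils1 (ENSMUSG00000038994) lies on chromosome 11 at 94967593 to 94968456, plus strand, inside an intron of the minus-strand gene Sgca (94962791 to 94976327) with no base shared with a Sgca exon. Whether the counting used strand is not given in the sources used here, so reads from the Sgca intron and from Hils1 cannot be told apart on that ground; Sgca itself was at 23.2 CPM (UMI counts scaled to a common total) in knockout and 25.95 CPM in heterozygous round-spermatid-like cells, far under Hils1.

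The 120 bases before each start are shown because the 3 genes come on at different stages and their starts carry different elements. They are from RefSeq (GRCm38.p6), where Hist1h1t is H1f6 and H1fnt is H1f7, at chr13:23695691-23695810 (plus strand), chr15:98257308-98257427 (minus strand) and chr11:94967473-94967592 (plus strand). Both strands were searched for TATAAA and its variant TATATAA (forms of the TATA box), for CCAAT (the CCAAT box), for GGGCGG (the GC box), for TGACG (the core of the cAMP response element) and for GTTGCC (a core of sites for RFX factors), and capitals mark the matches.

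Hist1h1t: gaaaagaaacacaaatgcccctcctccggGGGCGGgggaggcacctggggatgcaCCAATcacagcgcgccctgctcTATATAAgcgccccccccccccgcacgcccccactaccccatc

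H1fnt: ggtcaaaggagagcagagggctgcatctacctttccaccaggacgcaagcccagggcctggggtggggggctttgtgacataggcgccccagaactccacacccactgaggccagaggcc

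Hils1: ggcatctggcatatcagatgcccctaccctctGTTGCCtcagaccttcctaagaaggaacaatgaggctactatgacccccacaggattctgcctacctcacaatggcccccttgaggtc

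The Hist1h1t sequence holds TATATAA (bases -43 to -37), CCAAT (-65 to -61) and GGGCGG (-91 to -86), in the order usual for clustered histone genes. In the same 120-base window those motifs occur in 1.62%, 21.3% and 26.5% of 32851 RefSeq promoters. The H1fnt window holds none of the 6 motifs, and the Hils1 window holds GTTGCC at -88 to -83, as do 5.46% of promoters. Further out, up to 250 bases before the start, H1fnt has TGACG at -180 to -176 (17.8% of promoters hold it in that window) and Hils1 has an inverted CCAAT at -203 to -199 (33.8%). No match overlapped another.

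The ends of the mRNAs also differ, which bears on a kit that captures poly(A) tails. The annotated Hist1h1t transcript carries the 16-base stem-loop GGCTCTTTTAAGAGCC, the 3' signal of histone mRNAs made without a poly(A) tail, and 185 bases beyond it an end with the polyadenylation signal AATAAA 27 bases from the last base. The pattern searched was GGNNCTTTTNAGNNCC, on the transcript strand, and 0.167% of 58797 protein-coding transcripts hold it. Hils1 has no stem-loop and has AATAAA 24 bases from its end, and H1fnt has neither within its last 40 bases. Such a kit favours the polyadenylated form of Hist1h1t, but which ends the counts below come from was not checked. The share of its mRNA that ends at the stem-loop was not measured.

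After filtering, 18935 knockout and 14563 heterozygous cells fell into 22 clusters, made without the 3 genes, the transition protein and protamine genes, Xist, Y and mitochondrial genes. The libraries held 123588822 UMIs in the knockout and 71364845 in the heterozygous case (a UMI, or unique molecular identifier, tags an RNA molecule so that it is counted once), with medians per barcode of 3716 in the knockout and 1882.5 in the heterozygous library, and shared 88 barcodes. Clusters were named from marker genes, by the mean score of each marker set. All 10 pachytene, 10 round spermatid and 12 elongating spermatid markers reached 10 CPM in both libraries in their own class. That count does not set classes apart, since all 12 elongating markers also reached it in every other named class, Leydig-like cells included. Summed pachytene markers were at 4204 CPM in knockout and 3638 CPM in heterozygous pachytene-like cells, near the 3838 and 3371 CPM of dividing-like cells. Summed elongating markers were at 160634 and 197453 CPM in elongating-like cells, against 26437 and 33288 CPM in round-like cells. Clusters that matched no set clearly stayed unnamed and hold 24.3% of knockout and 49.7% of heterozygous cells. Cluster 7 (elongating-spermatid-like) is mostly knockout, with 2766 knockout and 163 heterozygous cells, and cluster 21 is mostly heterozygous, with 60 knockout and 1208 heterozygous cells, so values for elongating cells are given by cluster, for both joined and for the class.

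Hist1h1t mRNA was highest in the pachytene-like class, and in that class it was about 3-fold lower in the knockout library. It was counted 970 times in 1119 knockout pachytene-like cells, or 72.9 CPM (68.3 to 77.6), against 1838 times in 484 heterozygous cells, or 228 CPM (218 to 239). Per 100 cells that is 86.7 UMIs in knockout and 379.8 in heterozygous cells. The log2 ratio was -1.65 (-1.76 to -1.54), a level 3.13-fold higher in the heterozygous library. In the same class 0.453% of 4197 genes compared (those at 50 CPM or more in a library with 100 or more UMIs over both) were lower by 2-fold or more in knockout cells, and 1.41% were 2-fold apart in either direction. Of the UMIs of all 3 linker histones, Hist1h1t made up 38.7% in knockout and 57.6% in heterozygous pachytene-like cells.

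**Figure D1:**
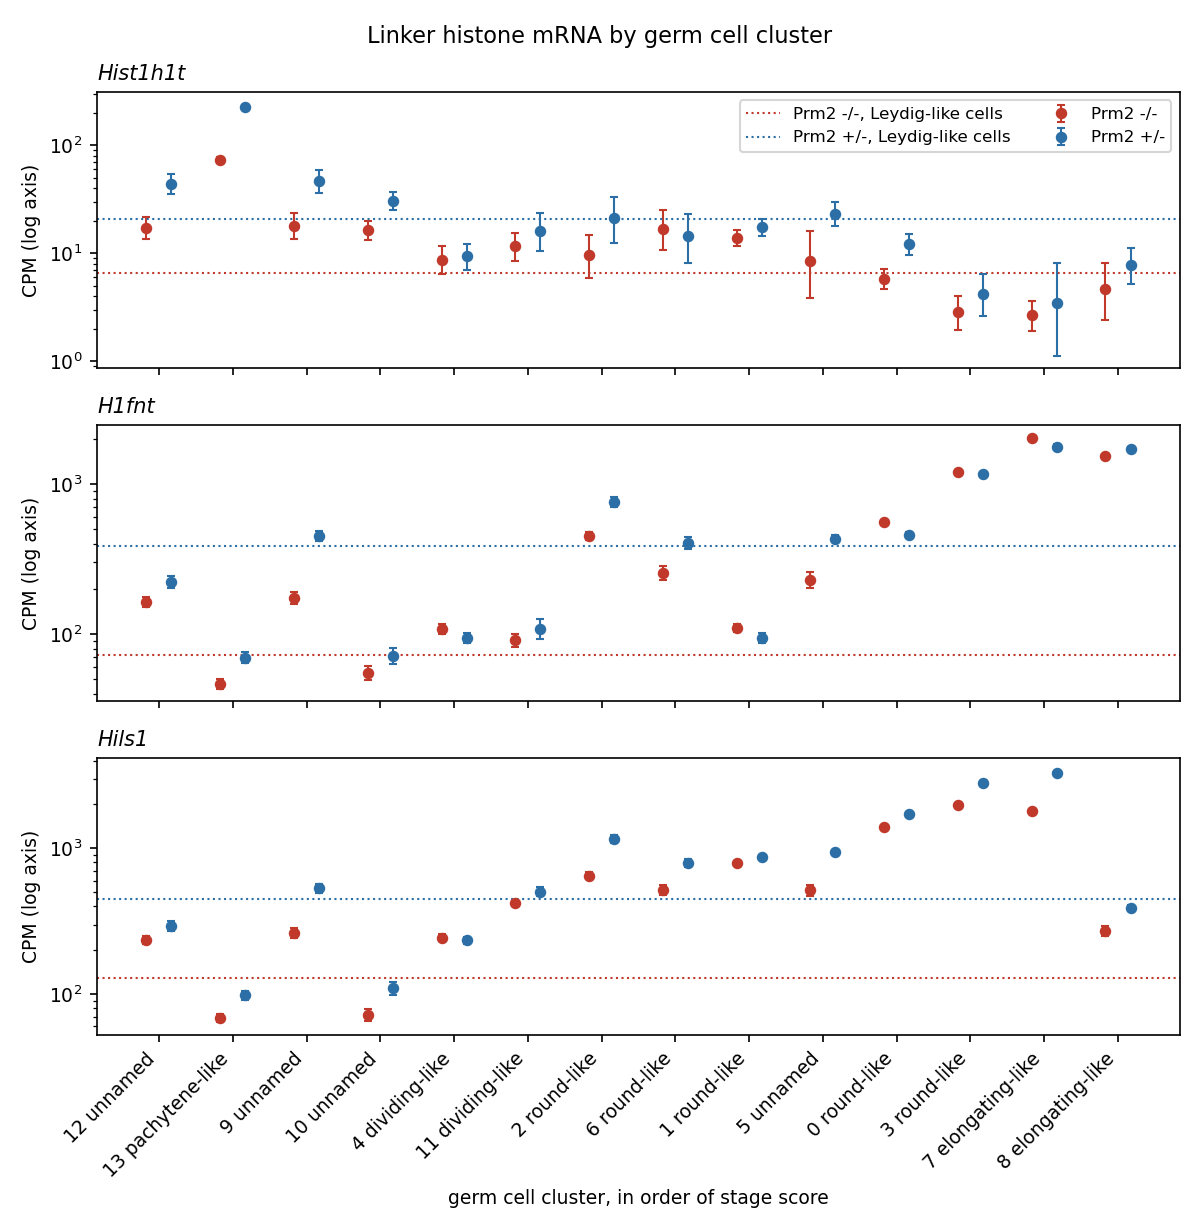
CPM of the 3 genes (log axis, 1 panel each) in the 14 germ cell clusters with 100 or more cells in both libraries, ordered by stage score; red points are Prm2 -/- and blue points Prm2 +/-, bars are 95% Poisson intervals and dotted lines the level in Leydig-like cells, which stand for free RNA. The dotted lines are in CPM, so they depend on the depth of Leydig-like cells and set no floor per cell. Hist1h1t is highest in cluster 13, at 72.9 CPM in knockout and 228 CPM in heterozygous cells. Hils1 is higher in cluster 3 than in clusters 1 and 0, and H1fnt is highest in clusters 7 and 8.

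A lower level in the knockout library was seen in each of 6 sub-clusters of the pachytene-like cells with 20 or more cells of both libraries. Sub-clustering was chosen after the data were seen and left the 3 genes out. Sub-cluster 0 (157 knockout and 135 heterozygous cells), where early meiotic Sycp1 was highest, had 101 CPM of Hist1h1t in knockout and 316 CPM in heterozygous cells, a log2 ratio of -1.64 (-1.94 to -1.35). Sub-cluster 5 (261 and 71 cells), where the late pachytene cyclin Ccna1 was highest at 193 CPM in knockout and 139 CPM in heterozygous cells, had 41.2 CPM of Hist1h1t in knockout and 142 CPM in heterozygous cells, a log2 ratio of -1.78 (-2.05 to -1.52). In the other 4 the log2 ratio ran from -1.47 to -1.22, and a last sub-cluster held 66 knockout cells and 1 heterozygous cell. The -1.47 was that of sub-cluster 4 (62 knockout and 24 heterozygous cells), where H1fnt (-2.03) and Hils1 (-1.60) were lower still. In the rest of the 6 the ratios of H1fnt and Hils1 ran from -0.46 to 0.33. The knockout range over these sub-clusters (41.2 to 124 CPM) lay wholly under the heterozygous range (142 to 316 CPM). With the sub-clusters weighted equally the log2 ratio was -1.44.

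The genes whose pattern over the 14 germ clusters was most like that of Hist1h1t differed less between the libraries. They were Psma8, a proteasome subunit of meiotic cells, Tesmin, Zmat2, Tdrd1, which acts in the piRNA pathway, and Tmem106c. Their Pearson correlations with Hist1h1t, on log2(CPM + 1) and as a description over clusters of the same libraries, were 0.89 to 0.91 in the knockout and 0.88 to 0.94 in the heterozygous library. In pachytene-like cells Psma8 was at 369.9 CPM in knockout and 407 CPM in heterozygous cells, a log2 ratio of -0.14 (-0.20 to -0.07). Tdrd1 was at 214 CPM in knockout and 317 CPM in heterozygous cells (-0.57), and the other 3 had log2 ratios of -0.36, -0.29 and 0.18.

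**Figure D2:**
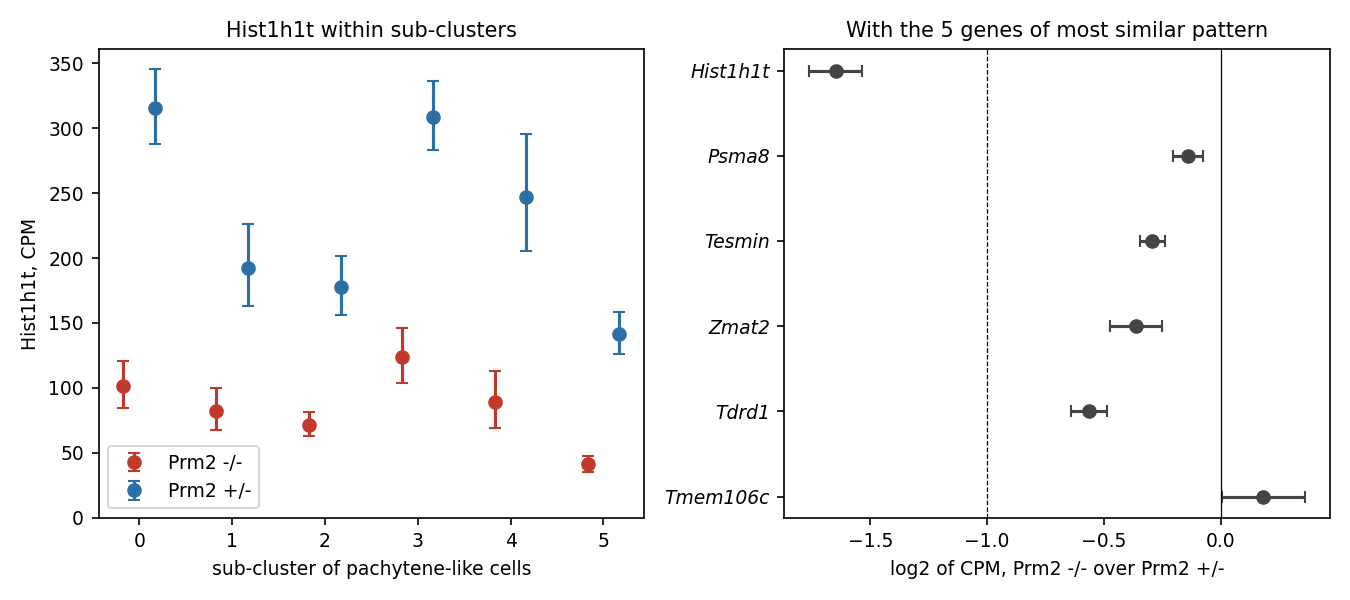
Left, Hist1h1t CPM in 6 sub-clusters of pachytene-like cells, Prm2 -/- in red left of Prm2 +/- in blue, with 95% Poisson intervals: every knockout point is at or under 124 CPM and every heterozygous point at or over 142 CPM. Right, log2 ratio of CPM in pachytene-like cells, Prm2 -/- over Prm2 +/-, for Hist1h1t (-1.65) and the 5 genes of most similar pattern, with 95% binomial intervals; the dashed line marks 2-fold lower.

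Other measures moved with this difference and their part in it was not tested. The summed level of the 10 pachytene markers was 4204 CPM in knockout and 3638 CPM in heterozygous pachytene-like cells, of the 10 dividing-spermatocyte markers 935 and 704 CPM, and of the 10 early spermatocyte markers 2368 and 2884 CPM. The 12 elongating spermatid markers, which pachytene cells are not known to make at such levels, summed to 3633 CPM in knockout and 6387 CPM in heterozygous cells of this class. Genes that lead cluster 14, an unnamed cluster of 73 knockout and 3385 heterozygous cells with medians of 902 and 964 UMIs, were also lower in knockout pachytene-like cells. Among them, Gm42418 was at 825 CPM in knockout and 2009 CPM in heterozygous cells (log2 ratio -1.28), AY036118 at 35.98 and 92.2 CPM (-1.36) and Cmss1 at 162 and 348 CPM (-1.10). As for free RNA, Leydig-like cells held 6.60 CPM of Hist1h1t in the knockout and 20.7 CPM in the heterozygous library. These rest on 5 and 19 UMIs, with a log2 ratio interval of -3.42 to -0.18. Depth also differed, with medians of 4182 UMIs in knockout and 1719 in heterozygous Leydig-like cells. Subtracting the Hist1h1t UMIs per cell of Sertoli- and Leydig-like cells left a log2 ratio of -1.68.

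In single cells thinned to 1507 UMIs, 10.1% of 1110 knockout pachytene-like cells had a Hist1h1t UMI (exact interval 8.38 to 12.01%), against 30.2% of 483 heterozygous cells (26.2 to 34.5%). Sertoli-like cells, which should lack the gene, gave 0.575% of 174 cells in the knockout library and 0 of 18 in the heterozygous library (exact upper bound 18.5%). Leydig-like cells gave 1.20% of 167 knockout and 1.43% of 140 heterozygous cells. Cells with 2 or more Hist1h1t UMIs made up 0.54% of thinned knockout and 7.45% of thinned heterozygous pachytene-like cells. Unthinned, the shares were 49.2% in knockout cells (median of 10950 UMIs) and 88.4% in heterozygous cells (14843 UMIs).

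Outside the pachytene-like class Hist1h1t was lower in both libraries. Cluster 12, unnamed but closest to early spermatocytes, had 17.2 CPM in knockout and 44.0 CPM in heterozygous cells (log2 ratio -1.35, -1.81 to -0.90). Cluster 9, unnamed with pachytene as its best marker match, had 18.0 CPM in knockout and 46.3 CPM in heterozygous cells (-1.36, -1.91 to -0.82). Cluster 10, unnamed and between pachytene and dividing cells, had 16.4 CPM in knockout and 30.8 CPM in heterozygous cells (-0.91). Unnamed cluster 14 had 52.9 CPM in heterozygous cells (208 UMIs) and 0 Hist1h1t UMIs in its 73 knockout cells. Dividing-spermatocyte-like cells had 9.98 CPM in knockout and 10.8 CPM in heterozygous cells, round-spermatid-like cells 7.67 and 12.5 CPM, and elongating-spermatid-like cells 2.90 and 5.20 CPM, knockout given before heterozygous. The intervals of dividing and round cells overlapped within each library. In none of these named classes, nor in clusters 12, 9 and 10, did Hist1h1t reach the 50 CPM needed for the comparison.

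Hils1 mRNA was modestly lower in knockout round-spermatid-like cells, by an amount within the spread of all genes compared there. It was counted 52275 times in 6824 knockout round-spermatid-like cells, or 1336 CPM (1325 to 1348), against 33159 times in 3402 heterozygous cells, or 1621 CPM (1603 to 1638). The log2 ratio was -0.28 (-0.30 to -0.26), short of 2-fold, in a class where 1.64% of 3896 genes were 2-fold apart. Of those genes 18.8% had a lower ratio than Hils1, and their 5th to 95th percentile ran from -0.50 to 0.62. Its sign was kept under every setting tried, with values from -0.50 to -0.11. Before that, dividing-spermatocyte-like cells held 320.3 CPM in knockout and 291 CPM in heterozygous cells, and pachytene-like cells 68.7 and 98.4 CPM. Leydig-like cells held 128 CPM in the knockout and 451 CPM in the heterozygous library. As CPM both were above the pachytene-like values, and 451 CPM was also above the heterozygous dividing value. Depth differed, with heterozygous medians of 1719 UMIs in Leydig-like, 8386.5 in dividing-like and 14843 in pachytene-like cells. Per cell heterozygous dividing-like cells held more Hils1 (2210 UMIs in 964 cells) than Leydig-like cells (415 UMIs in 257 cells). The CPM order thus does not place these classes against free RNA. Sertoli-like cells held 161 CPM in the knockout and 201 CPM in the heterozygous library (18 cells). Those were above the pachytene-like values and under the dividing values. In dividing-spermatocyte-like cells 1.57% of 4016 genes were 2-fold apart.

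Round-like clusters 1, 0 and 3, in order of stage, were deep in knockout cells. Cluster 0 was shallow in heterozygous cells, with medians of 6301 UMIs in knockout and 1743 UMIs in heterozygous cells. Hils1 was at 789 CPM in knockout and 875 CPM in heterozygous cells of cluster 1. It was at 1401 and 1726 CPM in cluster 0, and at 1988 and 2784 CPM in cluster 3. The log2 ratios were -0.15, -0.30 and -0.49 (intervals -0.20 to -0.10, -0.33 to -0.27 and -0.52 to -0.46), so knockout cells were lower in each of these clusters. In round-like clusters 2 and 6, shallow in both libraries (medians of 1188 to 1729 UMIs), the log2 ratios were -0.83 and -0.61. The 5 genes with the most similar pattern were Tmco2, Cypt1, Ropn1, Spag4, which acts in shaping the sperm head and neck, and Cypt2, with correlations of 0.986 or more in both libraries. In round-spermatid-like cells their log2 ratios were 0.26, 0.09, 0.24, 0.20 and -0.03. Tmco2, for example, was at 617 CPM in knockout and 516 CPM in heterozygous cells.

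In elongating cells the size of the Hils1 difference rested on how the library-split clusters were treated. Cluster 7 had 1801 CPM in knockout and 3301 CPM in heterozygous cells (log2 ratio -0.87, -0.92 to -0.83), and cluster 21 had 1245 and 1843 CPM (-0.57). Joined, clusters 7 and 21 had 1792 CPM in knockout and 2046 CPM in heterozygous cells (-0.19, -0.22 to -0.17). In cluster 8 the log2 ratio was -0.52 (-0.66 to -0.39) and in the small cluster 20 it was -0.64 (-1.40 to 0.05), so Hils1 was lower in knockout cells of all 4 elongating clusters, with an interval that spans 0 in cluster 20. Over the whole elongating-spermatid-like class, in which those clusters take different shares of the libraries, the levels were 1576 CPM (1558 to 1594) in knockout and 1595 CPM (1575 to 1616) in heterozygous cells, a log2 ratio of -0.02 that ran from -0.74 to 0.11 under the other settings tried and changed sign under 2 of 13. The stage makeup of these clusters and the genotype cannot be told apart in cluster 7.

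H1fnt mRNA was highest in elongating-spermatid-like cells, at nearly the same level in both libraries over the class as a whole. It was counted 35576 times in 3566 knockout cells, or 1945 CPM (1924 to 1965), against 28001 times in 2198 heterozygous cells, or 1968 CPM (1945 to 1991). The log2 ratio was -0.02 (-0.04 to 0.01), ranged from -0.57 with TMM factors to 0.08 with free RNA subtracted, and so had no settled direction. In this class 11.7% of 2431 genes were 2-fold apart, and the median log2 ratio of all genes compared was 0.26, against which H1fnt stood 0.28 lower. By cluster the ratios went both ways. Cluster 7 had 2011 CPM in knockout and 1763 CPM in heterozygous cells (0.19, 0.13 to 0.25), and cluster 21 had 2288 and 2135 CPM (0.10, -0.02 to 0.22). Cluster 8 had 1543 and 1715 CPM (-0.15, -0.21 to -0.09), and small cluster 20 had a ratio of -0.35 (-1.28 to 0.50). Joined, clusters 7 and 21 had 2016 CPM in knockout and 2083 CPM in heterozygous cells (-0.05).

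Among round-like clusters, H1fnt was at 110.2 CPM in knockout and 94.5 CPM in heterozygous cells of cluster 1, at 554 and 459 CPM in cluster 0, and at 1194 and 1168 CPM in cluster 3. Over the round-spermatid-like class it was at 602 CPM in knockout and 517 CPM in heterozygous cells, a log2 ratio of 0.22 that changed sign under 3 of the 13 other settings tried (-0.37 to 0.85). In shallow clusters 2 and 6 the log2 ratios were -0.74 and -0.66, opposite in sign to those of clusters 1, 0 and 3 (0.22, 0.27 and 0.03). In pachytene-like cells H1fnt was at 46.6 CPM in knockout and 69.5 CPM in heterozygous cells. As CPM that is under its 72.6 CPM in knockout and 386 CPM in heterozygous Leydig-like cells. It is also under its 132 CPM in knockout and 141 CPM in heterozygous Sertoli-like cells. Per 100 cells the order differed. Knockout cells held 55.5 UMIs in pachytene-like, 32.4 in Leydig-like and 56.9 in Sertoli-like cells. Heterozygous cells held 115.5, 138.1 and 116.7 UMIs in the same classes. The 5 genes with the most similar pattern were Tex35, Smim23, Cst8, Gprc5b and Otub2, with correlations of 0.989 or more in both libraries. Their log2 ratios in elongating-spermatid-like cells ran from -0.23 to 0.24. Prm3, of the protamine locus, correlated with H1fnt at 0.98 in each library, and Hils1 correlated with it at 0.73.

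**Figure D3:**
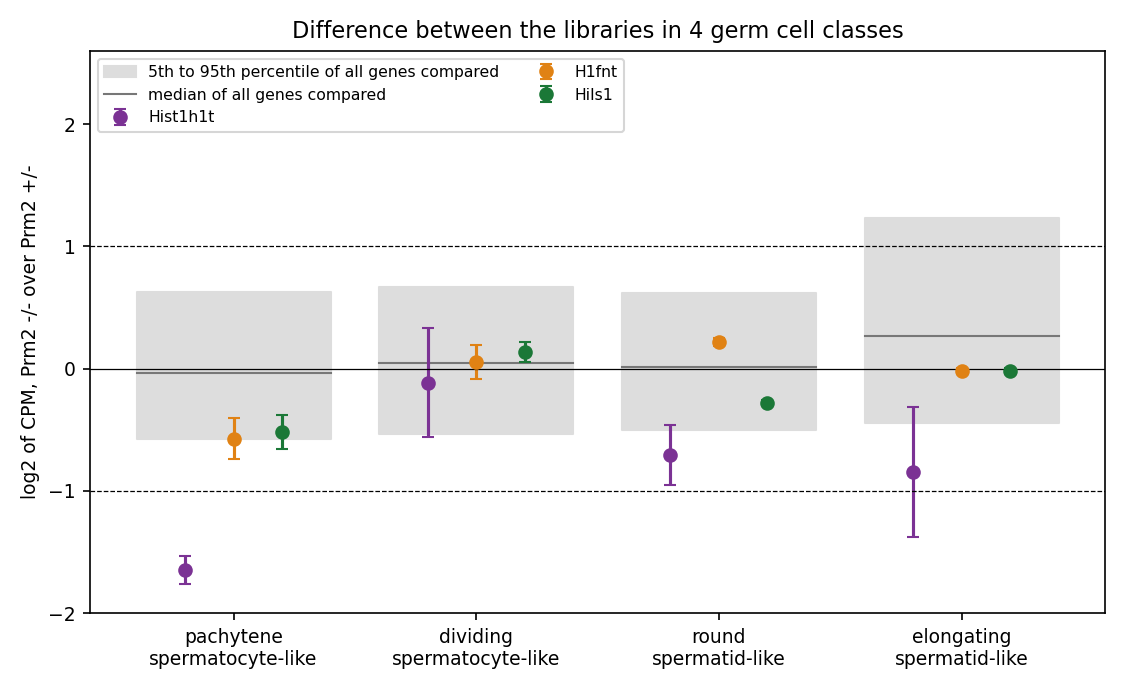
Log2 ratio of CPM, Prm2 -/- over Prm2 +/-, of the 3 genes in 4 germ cell classes, with 95% binomial intervals; grey boxes hold the 5th to 95th percentile of all genes compared in the class, grey lines their median, and dashed lines mark 2-fold. Hist1h1t lies under the grey box in pachytene-like (-1.65), round-like (-0.71) and elongating-like cells (-0.84), though under 50 CPM in round- and elongating-like cells. H1fnt lies at the lower edge of the box in pachytene-like cells (-0.57). Hils1 lies within the grey box in all 4 classes. H1fnt and Hils1 lie within the dashed lines in all 4 classes.

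The balance of the spermatid genes differed between clusters. A 3' kit counts an mRNA once whatever its length, but capture can differ between genes, so the ratio of H1fnt to Hils1 UMIs is compared between clusters and is not a ratio of molecules. It was 0.140 in knockout and 0.108 in heterozygous cells of cluster 1, 0.395 and 0.266 in cluster 0, 0.601 and 0.420 in cluster 3, 1.12 and 0.534 in cluster 7, and 5.67 and 4.38 in cluster 8. In shallow clusters 2 and 6, placed before cluster 1 by stage score, it was 0.695 in knockout and 0.653 in heterozygous cells of cluster 2 and 0.496 and 0.512 in cluster 6, so no steady order with stage held over all clusters. It was higher in knockout cells in clusters 1, 0, 3, 7 and 8. In clusters 2, 6 and unnamed 5 (0.444 in knockout and 0.459 in heterozygous cells) it hardly differed. There the intervals of the H1fnt share of the 3 genes' UMIs overlapped between the libraries. Over the elongating class it was 1.23 in both libraries. In Leydig-like cells, where free RNA is counted, it was 0.567 in the knockout and 0.855 in the heterozygous library. In Sertoli-like cells it was 0.817 in the knockout and 0.700 in the heterozygous library, the other way round.

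Cluster 8, which scores lower than cluster 7 for round spermatid markers, had much H1fnt and little Hils1. Hils1 was there at 272 CPM in knockout and 391 CPM in heterozygous cells, and H1fnt at 1543 and 1715 CPM. Of cells thinned to 1507 UMIs, H1fnt alone was seen in 55.0% of 703 knockout and 45.2% of 757 heterozygous cells, both genes in 27.3% and 39.8%, and Hils1 alone in 7.11% and 7.13%. At the other end, in cluster 1, Hils1 alone was seen in 57.4% of 1185 knockout and 61.0% of 631 heterozygous cells, and H1fnt alone in 5.65% and 3.96%. In cluster 3 both genes were seen in 76.6% of 1160 knockout and 79.1% of 406 heterozygous cells. Thinned Leydig-like cells had an H1fnt UMI in 13.8% of knockout and 27.1% of heterozygous cells and a Hils1 UMI in 18.0% and 33.6%. Of thinned Sertoli-like cells, 85.1% of 174 in the knockout and 88.9% of 18 in the heterozygous library had no H1fnt UMI. No Hils1 UMI was seen in 81.6% and 72.2% of them. The H1fnt shares in cluster 1 were 15.0% of knockout cells (13.0 to 17.2%) and 13.6% of heterozygous cells. The knockout share overlapped the Leydig-like interval of 8.94 to 19.9%, and the heterozygous share was under the Leydig-like share. Before thinning, heterozygous medians were 9780 UMIs in cluster 1 and 1719 in Leydig-like cells, so these shares set no free RNA level per cell.

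**Figure D4:**
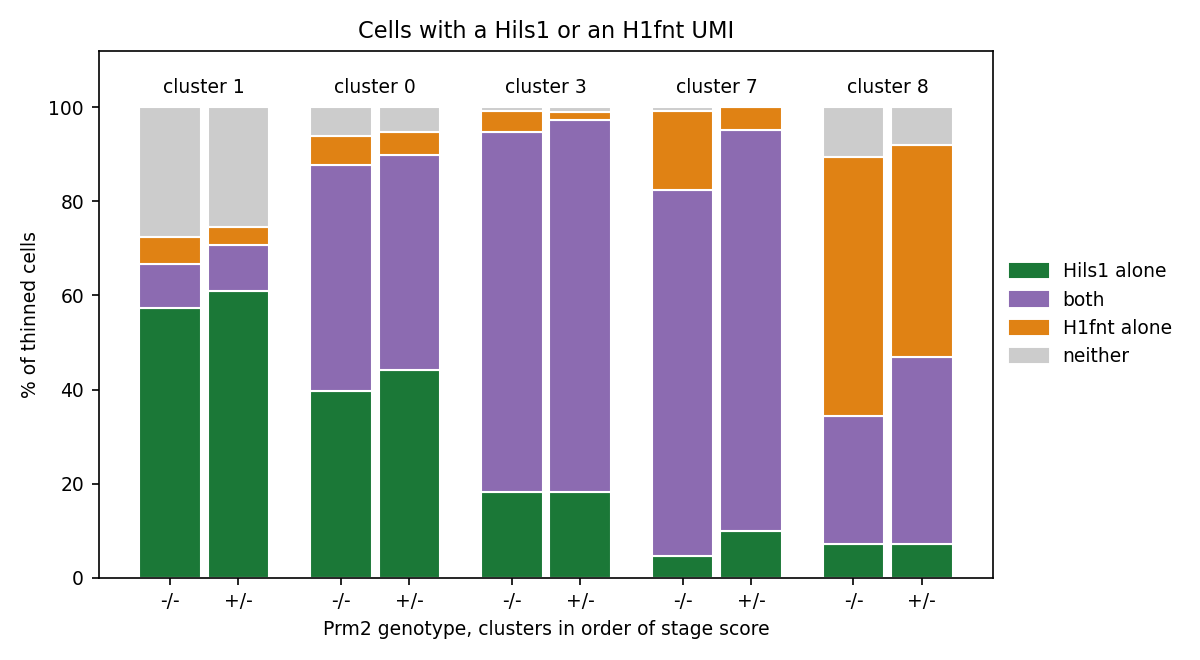
Shares of cells, thinned to 1507 UMIs, with a UMI of Hils1 alone, of both genes, of H1fnt alone or of neither, in 5 spermatid clusters in order of stage score; Prm2 -/- is left of Prm2 +/- in each pair. Hils1 alone leads in cluster 1 (57.4% of knockout cells), both genes in cluster 3 (76.6%) and H1fnt alone in cluster 8 (55.0%).

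Of the other 8 linker histone genes, H1fx alone passed the size rule in any of the 4 germ classes. H1fx, a linker histone of many cell types, was at 223 CPM in knockout and 190 CPM in heterozygous pachytene-like cells (log2 ratio 0.23), at 87.1 and 56.6 CPM in round-spermatid-like cells (0.62) and at 101 and 58.4 CPM in elongating-spermatid-like cells (0.79). H1f0, the linker histone of resting cells, was at 10.2 CPM in knockout and 12.2 CPM in heterozygous pachytene-like cells. The replication-dependent genes Hist1h1a to Hist1h1e, whose mRNAs mostly lack poly(A) tails, and oocyte H1foo stayed under 5 CPM in pachytene-, round- and elongating-spermatid-like cells of both libraries. In unnamed cluster 12, where Hist1h1t was also lower in the knockout library, 5 of the 8 passed, and 3 of those were lower by 2-fold or more, beside 0.474% of 5068 genes there. Hist1h1a was at 119.6 CPM in knockout and 274 CPM in heterozygous cells of that cluster (-1.20), Hist1h1c at 14.6 and 66.7 CPM (-2.19) and Hist1h1e at 15.3 and 68.1 CPM (-2.15). H1fx was there at 380.03 CPM in knockout and 254 CPM in heterozygous cells (0.58).

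The proteins of Tnp1, Tnp2, Prm1 and Prm2 follow these histones on DNA, and Prm3, of the protamine locus, was listed with them. Prm2 itself was at 10.4 CPM in knockout and 39818 CPM in heterozygous elongating-spermatid-like cells, which fits the labels. Of the 5 genes, Prm2 was the only one 2-fold lower in the elongating-spermatid-like class; the log2 ratios of the others there were -0.41 for Prm1, -0.23 for Tnp1, -0.18 for Prm3 and -0.14 for Tnp2. The median of the 5 in pachytene-like cells, where Tnp1 was at 511 CPM in knockout and 994 CPM in heterozygous cells, was -0.96, beside a median of -0.04 for all genes there.

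Of 12 listed regulators of testis and H1t promoters, 6 passed in pachytene-like cells and none was 2-fold apart, and their median log2 ratio was 0.28. Farthest from 0 were Tcfl5 (581 CPM in knockout and 412 CPM in heterozygous cells, 0.49), Nfya, which binds CCAAT boxes (60.9 and 45.97 CPM, 0.41), Mybl1, a master regulator of pachytene genes (96.7 and 123 CPM, -0.35), and Rfx2 (135 and 106 CPM, 0.35). Of 12 listed chaperones of H1 and factors of histone exchange, 11 passed there and none was 2-fold apart, with a median of -0.17. The ratios farthest from 0 were those of Supt16, a subunit of the FACT histone chaperone (138 CPM in knockout and 258 CPM in heterozygous cells, -0.90), Hmgb4 (-0.63), Ptma (0.38) and Npm3 (-0.36). Nasp, a chaperone that binds linker histones, was at 1962 CPM in knockout and 1571 CPM in heterozygous cells (0.32). In elongating-spermatid-like cells 3 regulators and 7 chaperones passed, with 1 of each 2-fold higher in the knockout library. These were Rfx2, at 50.1 CPM in knockout and 24.7 CPM in heterozygous cells (1.02), and Set, an H1 chaperone, at 81.2 and 36.8 CPM (1.14), in a class where 10.7% of all genes compared were 2-fold higher. None of 6 genes that overlap or neighbour the 3 passed in any of the 4 classes. In cluster 12, 2 neighbours of Hist1h1t passed and both, Hist1h1c and Hist1h4c, were lower by 2-fold or more in the knockout library, with Hist1h4c at 30.2 CPM in knockout and 98.7 CPM in heterozygous cells (-1.71). Sgca, around Hils1, was at 14.3 CPM in knockout and 30.4 CPM in heterozygous pachytene-like cells.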

How the data were processed

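The deposited files hold raw UMI counts per gene and barcode for 1 library per genotype, written by Cell Ranger (version 7.1.0 per the file headers). Seurat 4.1.0 and mm10 stand in the submitters' processing notes, with no role given. Cells needed 500 UMIs, 250 genes and at most 20% mitochondrial UMIs. Scrublet in scanpy 1.11.5 removed 15.7% of knockout and 3.07% of heterozygous cells as doublets. Barcodes over 1% hemoglobin UMIs were set aside (28 knockout and 13 heterozygous). Cells were clustered without integration (2000 variable genes, 30 components, Leiden resolution 1) and named from marker sets. UMIs were summed per class, scaled to CPM and compared as log2 ratios, with exact Poisson, conditional binomial and Clopper-Pearson intervals. Genes named are the 3 members, the 5 most similar genes to each, and at most 4 genes per list, those whose pachytene-like ratio lay farthest from 0. Nasp, Rfx2 and Set in elongating cells, the genes of clusters 12 and 14, and the histones in the closing section were named after their values were seen. Members and lists were chosen with earlier results of these data known. Positions are from GENCODE M21. Alternatives covered cell filters, doublets, clustering, scaling, weights and free RNA. The ratio and its interval were tested on simulated data. edgeR 4.0.16 gave TMM factors.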

Additional observations from a re-analysis of the deposited data

How the results depend on the processing

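The Hist1h1t ratio in pachytene-like cells stayed 2-fold or more lower under all 13 other settings; it was outside its counting interval with at most 10% mitochondrial UMIs (-1.22), without doublet removal (-1.78) and with sub-clusters weighted equally (-1.44). The Hils1 ratio in round-spermatid-like cells kept its sign under all 13 and moved with 1000 UMIs per cell (-0.23), at most 10% mitochondrial UMIs (-0.23), Leiden resolution 0.5 (-0.35) and 2 (-0.11), each library clustered on its own (-0.50), the knockout doublet threshold in both libraries (-0.25), TMM factors (-0.30), equal weight per cell (-0.37), free RNA subtracted (-0.14) and equal weight per cluster (-0.46). The H1fnt ratio in elongating-spermatid-like cells moved with 1000 UMIs per cell (-0.05), TMM factors (-0.57), the median of all genes set to 0 (-0.28), equal weight per cell (0.01), free RNA subtracted (0.08) and equal weight per cluster (0.06). Causes were not tested. Sub-clusters, equal weight per cluster and the shared doublet threshold were chosen after seeing the data. Macrophage-like cells formed no cluster, so free RNA came from Sertoli- and Leydig-like cells. Counts of genes 2-fold apart in the 4 classes depend on the minimum level: 59 at 50 CPM, 215 at 10 CPM and 20 at 200 CPM in pachytene-like cells, then 63, 329 and 12 in dividing, 64, 243 and 13 in round and 285, 1350 and 66 in elongating cells. No paired analysis was possible because there is 1 library per genotype. Depth limits Hist1h1t outside pachytene, where it rests on 300 or fewer UMIs per class and library.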

Other observations

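Among the 19 genes at least 2-fold lower in knockout pachytene-like cells were 3 other testis histone genes, named here after their values were seen. Hist1h2ba, which encodes the germ cell H2B variant TH2B, was at 38.8 CPM in knockout and 104 CPM in heterozygous cells (log2 ratio -1.42). Its neighbour Hist1h2aa, which encodes TH2A, was at 26.4 CPM in knockout and 64.0 CPM in heterozygous cells (-1.28). H2al2a, an H2A variant known from spermatids, was at 28.9 CPM in knockout and 63.1 CPM in heterozygous cells (-1.13). Hist1h2ba and Hist1h2aa lie on chromosome 13 about 237 kb from Hist1h1t. Chromosome 13 did not stand out among the 19 genes. It holds 4 of them, Hist1h1t and the far Gm10260 included, and the chromosome of Prm2 holds 3. More lie on chromosome 17 (Gm42418, AY036118, Gm49794, Tcp10b, Dnah8 and Meiob). The 19 genes also hold Gm42418, AY036118 and Cmss1, which lead the mostly heterozygous cluster 14, and the part of that library difference was not tested. In the 6 pachytene sub-clusters Hist1h2ba had log2 ratios from -1.60 to -0.68, lower in knockout cells in each, and those of Hist1h2aa ran from -1.45 to 0.13.

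In cluster 9, unnamed and with a median of 1856 UMIs in knockout and 1977.5 in heterozygous cells, H1fnt was at 173 CPM in knockout and 453 CPM in heterozygous cells and Hils1 at 263 and 532 CPM, while the deeper cluster 10 (medians of 9658 in knockout and 10149 in heterozygous cells) had 54.8 CPM of H1fnt in knockout and 71.8 CPM in heterozygous cells. Leydig-like cells differed in the same direction, with 72.6 CPM of H1fnt in knockout and 386 CPM in heterozygous cells. Sertoli-like cells had 132 CPM in knockout and 141 CPM in heterozygous cells. The heterozygous value rests on 21 UMIs in 18 cells, and the log2 ratio of -0.10 had an interval of -0.78 to 0.66. The part of free RNA in cluster 9 was not tested. Cluster 14, with 73 knockout and 3385 heterozygous cells, held 1221 CPM of Hils1 in the heterozygous library and stayed unnamed.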
